A study of Mus musculus with 3 samples.

Results

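This account covers 10 genes for adhesion molecules and sorting antigens of the epithelial surface, Epcam, Cdh1, Cdh17, Ceacam1, Ceacam20, Cd44, Cd24a, Prom1, Itga6 and Itgb4, out of 35824 genes in the count table. They were listed by name as surface molecules, by a rule that uses no measured value though earlier results of these data were known, and all 10 were found by Ensembl identifier and passed the filter on low counts. The cells were IEC (intestinal epithelial cells) of SIO (small intestinal organoids, crypt epithelium grown in Matrigel) from the ileum of female CD45.1 C57BL/6 mice, and the labels name no deletion or transgene. The donor age was 6 to 8 weeks in the sample labels and up to 10 weeks in the series text. SIO were kept for 4 days with ILC3 (type-3 innate lymphoid cells) of GFP reporter mice in growth medium with EGF, Noggin and R-spondin, to which IL-2, IL-7 and IL-15 were added. There were 3 libraries of this single condition, A, B and C, labelled biological replicates 1, 2 and 3. The labels keep A and B in the final analysis of the study and exclude C. Libraries of IEC ONLY are not analysed here, and no value below measures an effect of ILC3.

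Epithelial sheets hold together through cadherins, which bind their like on the next cell and anchor to the actin cytoskeleton through catenins, and rest on laminin through integrins. EpCAM is a pan-epithelial adhesion molecule that is also the usual handle for sorting IEC. CEACAM proteins are immunoglobulin-type adhesion molecules of the apical surface, while CD44, CD24 and prominin-1 are used to sort crypt cells by their depth in the crypt or their lineage. The libraries held between 17946361 and 28913885 counts. Levels are given as CPM, counts scaled to a common library size with TMM factors, which compare 1 gene between libraries. Different genes are compared in CPM per kilobase of their longest coding transcript.

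IEC were isolated by sorting, with antibodies to EpCAM and CD45 in the stain given in the methods of the study, so Epcam may belong to what chose the cells. The epithelial markers were those of the label: the keratin gene Krt8 was at 4836, 5443 and 5848 CPM in A, B and C, and all 11 epithelial markers were detected in every library, with 0 called by edgeR, 3 at an unadjusted p under 0.05 and 2 called by the DESeq2 Wald test. Ptprc, which encodes the CD45 carried by ILC3, had 1 count in A and 0 in both B and C. Il22, Ncr1 and Cd3e were at 0 throughout, and Il7r had at most 2 counts. Of the 15 ILC3 and other leukocyte markers, 6 were at 0 throughout and 5 were tested, with 0 called by edgeR, 0 at an unadjusted p under 0.05 and 0 called by the DESeq2 Wald test. Stromal and endothelial markers summed to 3.83, 7.15 and 0.385 CPM in A, B and C, with Vim (vimentin) called lower in C, at 0 there.

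Together the 10 genes summed to 5065 CPM in library A, 5180 in B and 5029 in C. Per kilobase they spanned from 5.15 ± 2.45 (SD, n = 3) for Ceacam20 to 738 ± 158 (SD, n = 3) for Epcam. The sum was nearly level across libraries, while single genes moved in opposite directions. The median absolute log2 difference between A and B was 0.14 over the 10 genes, beside 0.39 over the 13604 genes tested. The tested genes were not matched to the members in level. By mean CPM Ceacam20 ranked 7860th and Cd44 3342nd of all genes, and the other members ranked higher.

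**Figure D1:**
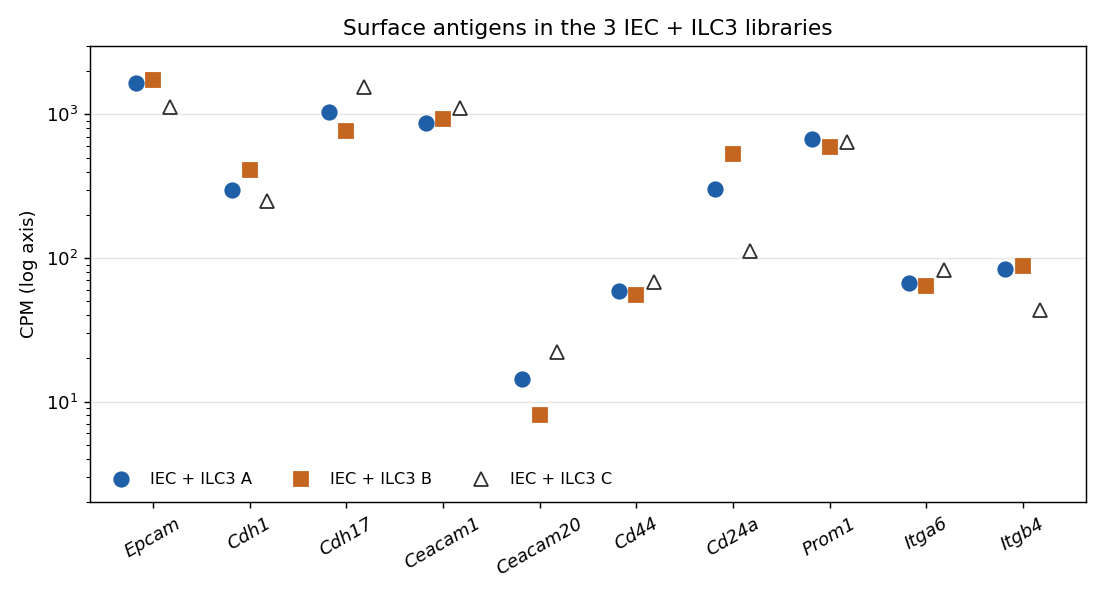
Level of each surface antigen in the 3 IEC + ILC3 libraries in CPM on a log axis; circles are library A, squares B and open triangles C. Cd24a has the widest spread, from 112 CPM in C to 529 in B, and Prom1 the narrowest, from 597 to 677 CPM.

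Epcam was the most abundant of these genes. It occupies chromosome 17 (GRCm38) between 87635979 and 87651129 and stood at 1647, 1733 and 1136 CPM in A, B and C, the 62nd highest mean of all genes. A and B were nearly equal, and C was below both. The log2 fold change of C against A and B was -0.58 (standard error 0.29), which did not pass the threshold of an adjusted p of 0.1 (adjusted p = 0.277, edgeR's quasi-likelihood test over all 13604 genes). This test sets C against a pair of libraries, and it compares libraries, not conditions.

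Cdh1 encodes E-cadherin, the classical cadherin of the epithelial adherens junction. Cdh17 encodes LI-cadherin, a cadherin of gut epithelium with a short cytoplasmic tail that does not bind catenins. Cdh1 (chromosome 8, 106603351 to 106670246) was at 298, 413 and 251 CPM in A, B and C. It was lowest in C, but A lay closer to C than to B, and the log2 fold change of -0.51 (standard error 0.32) was not called (adjusted p = 0.363, edgeR). Cdh17 (chromosome 4, 11758147 to 11817895) was at 1038, 761 and 1549 CPM in A, B and C. Here C was the highest and B the lowest, with a log2 fold change in C of 0.78 (standard error 0.31, adjusted p = 0.192, edgeR). The Cdh17 difference was called by the DESeq2 Wald test (adjusted p = 0.0897) and with no filter on low counts (adjusted p = 0.0748, edgeR).

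The balance of these cadherins can be read inside each library, free of library scaling. Per kilobase, Cdh17 exceeded Cdh1 4.45-fold in A, 2.36-fold in B and 7.91-fold in C. LI-cadherin mRNA was therefore the more abundant of the pair in every library, with a ratio that differed 3.36-fold between B and C. Cdh17 over Epcam was 0.371 in A, 0.259 in B and 0.804 in C. The enterocyte gene Fabp1, a fatty acid binding protein, was also highest in C and lowest in B, at 719, 522 and 1296 CPM in A, B and C, and Krt20, a keratin of mature cells, was at 246, 178 and 347 CPM. Alpi, the brush border phosphatase, was highest in A, at 1477 CPM against 1008 in B and 1401 in C. The third enterocyte marker, Apoa1, was at 685, 476 and 549 CPM, highest in A like Alpi, and Vil1 (villin) of the epithelial list was lowest in C, at 430, 459 and 269 CPM. Of the 3 enterocyte markers 0 were called by edgeR, while 1 had an unadjusted p under 0.05 and the DESeq2 Wald test called 1. Whether the share of mature enterocytes moves Cdh17 was not tested, and in bulk libraries more cells of a type cannot be told apart from more RNA per cell.

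Ceacam1 encodes a homophilic adhesion molecule with inhibitory motifs in its cytoplasmic tail, and it lies on the minus strand of chromosome 7 from 25461707 to 25477603. It was at 877, 931 and 1118 CPM in A, B and C. The 3 libraries were close, with C the highest, and the log2 fold change in C of 0.30 (standard error 0.28) was not called (adjusted p = 0.551, edgeR). Of the 3626 stretches of 31 bases in its longest coding transcript, 57.7% also occur in a transcript of the paralog Ceacam2. The counting gave Ceacam2 1, 2 and 3 counts in these libraries, so nearly all such reads were assigned to Ceacam1, and the split between the paralogs is uncertain.

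Ceacam20, a microvillus CEACAM that signals with the phosphatase encoded by Ptprh, was the least abundant of the 10 genes. It lies on chromosome 7 from 19965412 to 19991104 and had 262, 185 and 635 counts in A, B and C. These are 14.3 CPM in A (exact 95% Poisson interval 12.6 to 16.2), 8.06 in B (6.94 to 9.31) and 22.2 in C (20.5 to 24.0), with intervals that do not overlap but cover counting error only. The log2 fold change in C was 0.98 (standard error 0.50, adjusted p = 0.287, edgeR), so the excess of C was not larger than the spread the test allows for. Against B alone C was 1.46 higher on the log2 scale, and against A alone 0.63. Ptprh went the other way in C, with a log2 fold change of -0.91 that was not called (adjusted p = 0.197, edgeR). Per kilobase Ceacam1 exceeded Ceacam20 48.4-fold in A, 91.3-fold in B and 39.8-fold in C.

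Cd44 encodes the hyaluronan receptor that is a Wnt target of the crypt, and Prom1 encodes prominin-1 (CD133), a membrane protrusion protein of stem and progenitor cells. Prom1 (minus strand of chromosome 5, 43993620 to 44102032) was at 677, 597 and 647 CPM in A, B and C. It was the steadiest gene of the set, with a coefficient of variation of 6.30%, and the only one for which C lay between A and B. The log2 fold change in C was 0.02 (standard error 0.29, adjusted p = 0.979, edgeR). Cd44 (minus strand of chromosome 2, 102811141 to 102901665) was at 59.3, 55.6 and 68.6 CPM in A, B and C, with a log2 fold change in C of 0.25 (standard error 0.29, adjusted p = 0.640, edgeR). Its 8 coding transcripts differ in variable exons, and counts per gene do not separate them. Prom1 over Cd44 per kilobase was 15.7 in A, 14.8 in B and 13.0 in C. The stem cell receptor gene Lgr5 was at 256, 330 and 282 CPM in A, B and C. C lay between A and B there too, but B was the highest for Lgr5 and the lowest for Prom1. The other stem cell markers differed: Olfm4 was lowest in C, at 5983, 7853 and 5944 CPM in A, B and C. Smoc2 was highest in C, at 531, 528 and 695 CPM.

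Cd24a was the only one of the 10 genes to pass the test, and it was lower in library C, a statement about a single library whose own variation cannot be told apart from it. CD24 is a small, heavily glycosylated surface protein held by a lipid anchor, and in mouse small intestine it marks Paneth cells as well as enteroendocrine and tuft cells. The gene lies on chromosome 10 from 43578284 to 43584265. Its coding sequence is shown because it makes up only 231 of the 1816 bases of the transcript, in 2 exons at chr10:43579254-43582765 on the plus strand of GRCm38 (GENCODE M21), and encodes 76 residues; capitals mark the start and stop codons.
Cd24a: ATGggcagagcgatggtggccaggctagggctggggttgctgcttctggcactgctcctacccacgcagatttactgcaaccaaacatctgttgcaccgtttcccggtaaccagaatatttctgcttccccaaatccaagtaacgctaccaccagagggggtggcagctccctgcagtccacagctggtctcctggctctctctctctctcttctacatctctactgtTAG

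After the stop codon the transcript goes on for 1500 bases, so most of the Cd24a transcript lies outside the coding part. Of its stretches of 31 bases, 7.11% occur in transcripts of other genes, chiefly Gm6212, which was at 0 in all libraries.

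Cd24a had 5554, 12127 and 3199 counts in A, B and C, or 304, 529 and 112 CPM. C was below both other libraries, and A and B themselves lay 1.74-fold apart. The log2 fold change of C was -1.90 (standard error 0.40, adjusted p = 0.0562, edgeR's quasi-likelihood test), a level 3.72-fold lower. The size rests on which library C is set against: it was -2.24 against B alone and -1.44 against A alone, values with no test. It did not pass a threshold of 0.05, and at 0.1 it was called in all 7 alternative fits with other scalings, filters, trends or the DESeq2 Wald test.

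Marker genes of cell types were set beside Cd24a; none of enteroendocrine cells was among them. The Paneth genes Lyz1 (lysozyme), Defa24 (an alpha-defensin) and Mmp7 (a protease that activates defensins) gave no call by edgeR (0 at an unadjusted p under 0.05, 0 by the DESeq2 Wald test), with log2 fold changes in C of -0.38, 0.29 and 0.09. The tuft cell genes Trpm5 and Dclk1 were at 16.3 and 0.984 CPM in A and 29.2 and 8.28 CPM in B, and at 0 in C, where 3 counts would be 0.105 CPM. Both were called lower in C (adjusted p = 0.0144 and 0.0909, edgeR). Of 3 goblet genes 2 were called lower, beside 5.20% of all genes: Muc2 fell from 254 and 220 CPM to 50.5 and Fcgbp from 675 and 827 to 241 CPM (adjusted p = 0.0228 and 0.0458, edgeR). The third, Tff3, was at 670, 1131 and 603 CPM in A, B and C and was not called (adjusted p = 0.368, edgeR). The stem cell genes Lgr5, Olfm4 and Smoc2 gave no call by edgeR, with 0 at an unadjusted p under 0.05 and 0 by the DESeq2 Wald test. The order of Cd24a, highest in B and lowest in C, was also that of Trpm5, Dclk1, Lyz1, Fcgbp, Tff3 and Olfm4. Of the same lists, Defa24, Mmp7, Muc2, Lgr5 and Smoc2 did not have it. C lay below both other libraries for 41.0% of all genes tested. The part of each cell type in the Cd24a difference was not tested.

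Itga6 and Itgb4 encode the subunits of the α6β4 integrin, the laminin receptor of hemidesmosomes. The β4 subunit pairs only with α6, while α6 also pairs with β1. Itga6 (chromosome 2, 71745616 to 71858416) was at 67.1, 63.7 and 82.8 CPM in A, B and C, a log2 fold change in C of 0.34 (standard error 0.28, adjusted p = 0.509, edgeR). Itgb4 (chromosome 11, 115974709 to 116008412) was at 83.6, 87.6 and 43.2 CPM in A, B and C. A and B were nearly equal for Itgb4, and C stood 1.99-fold lower. The log2 fold change of -0.99 (standard error 0.30) missed the threshold (adjusted p = 0.117, edgeR). It was called with plain library totals (adjusted p = 0.0998, edgeR), with at least 10 counts in every library (adjusted p = 0.0749, edgeR), with no filter (adjusted p = 0.0452, edgeR) and by the DESeq2 Wald test (adjusted p = 0.0766).

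Per kilobase the subunits were nearly matched in A and B, with Itga6 over Itgb4 at 1.16 and 1.05, and apart in C, at 2.76. Itgb4 has the longest transcript (6208 bases) and the highest GC content (60.0%) of the 10 genes, and over the 13555 tested genes with both features the log2 difference of C fell with transcript length (Spearman rho -0.16) and with GC content (rho -0.12), a description across genes that share libraries. With the length trend removed the log2 fold change of Itgb4 was -0.76 (adjusted p = 0.197, edgeR), and with the GC trend removed -0.73 (adjusted p = 0.200, edgeR). Cd24a has the shortest transcript and the lowest GC content (43.0%) of the set. Its log2 fold change went the other way under the same corrections, to -2.09 and -2.06 (adjusted p = 0.0485 and 0.0478, edgeR).

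**Figure D2:**
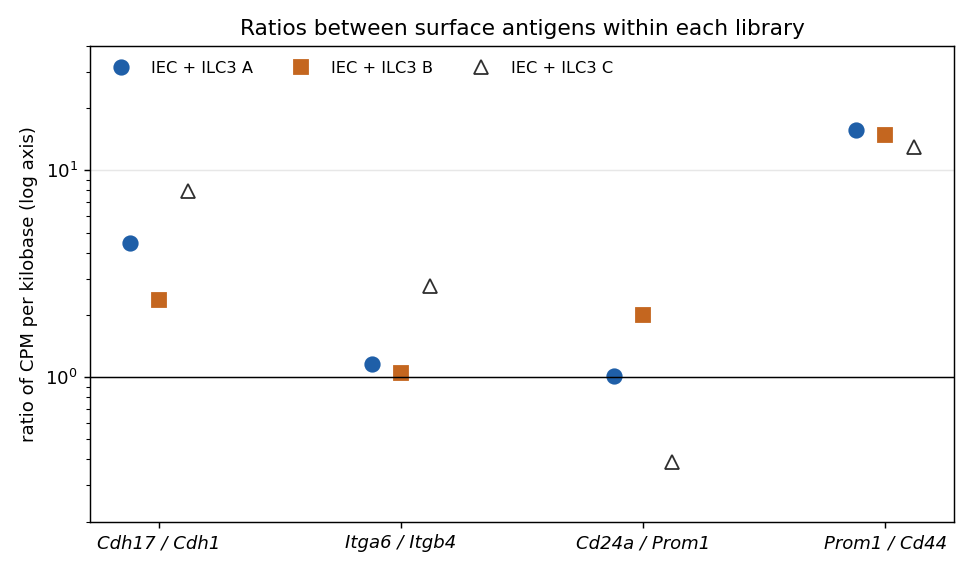
Ratios of CPM per kilobase between pairs of surface antigens within each library, on a log axis; the line marks equal levels. Itga6 over Itgb4 is near 1 in A and B and 2.76 in C, Cd24a over Prom1 runs from 0.389 in C to 1.99 in B, and Prom1 over Cd44 stays between 13.0 and 15.7.

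In all, 1 of the 10 genes was called lower in C and 0 higher, beside 6.56% of all genes called in either direction, 5.20% lower and 1.36% higher. Besides Cd24a, Cdh17 and Itgb4 had an unadjusted p under 0.05 in edgeR. C lay above both other libraries for 5 genes (Cdh17, Ceacam1, Ceacam20, Cd44 and Itga6) and below both for 4 (Epcam, Cdh1, Cd24a and Itgb4). Among all genes tested those positions held for 37.6% and 41.0%, so lying outside A and B is usual in library C. The median log2 fold change was 0.13 over the 10 genes and -0.10 over all genes tested.

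**Figure D3:**
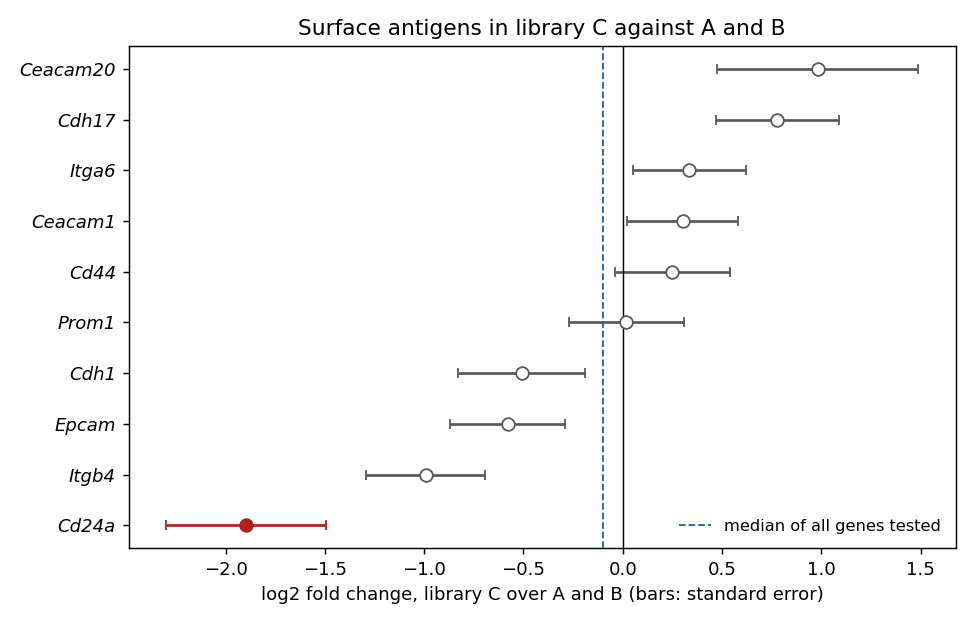
Log2 fold change of library C over A and B for each surface antigen, with bars of 1 standard error from edgeR; the filled point passed an adjusted p of 0.1 and the dashed line is the median of all genes tested, -0.10. Cd24a at -1.90 is the called gene, and Itgb4 at -0.99 and Ceacam20 at 0.98 lie furthest out among the rest.

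Ordered by mean CPM per kilobase, the genes ran Epcam (738), Cdh17 (322), Ceacam1 (267), Cd24a (173), Prom1 (157), Cdh1 (72.4), Itga6 (16.5), Itgb4 (11.5), Cd44 (10.9) and Ceacam20 (5.15). Of the 9 pairs of neighbours, 5 did not overlap in their values over the 3 libraries and kept their order in each. The order was not settled for Cdh17 and Ceacam1, Ceacam1 and Cd24a, Cd24a and Prom1, or Itgb4 and Cd44, where 1 library reversed it. The choice of length matters as well. With the median length of the coding transcripts, Ceacam1 moved above Cdh17 and Cd44 above Itga6, and with the coding length alone Cd24a moved to position 2. For Cd24a that coding length was 294 bases, the longest of its coding transcripts, not the 231 bases of the sequence printed above.

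**Figure D4:**
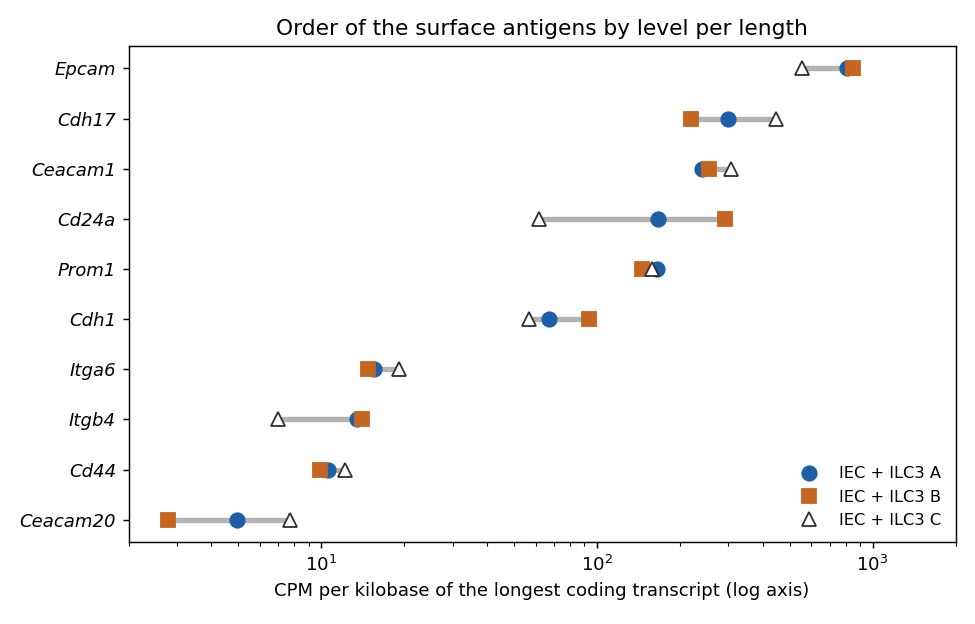
CPM per kilobase of the longest coding transcript on a log axis, genes ordered by their mean over 3 libraries; grey bars span the lowest to the highest library. Epcam stands apart from Cdh17, and a step separates Cdh1 (72.4) from Itga6 (16.5), while Cd24a (61.6 to 291) spans its neighbours.

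The partners of these molecules were measured as lists. EpCAM associates with claudin-7 and tetraspanins, and is cleaved by the protease matriptase (St14), which the inhibitors Spint1 and Spint2 restrain. Of 12 genes in this list 11 were tested, 1 was called lower in C and 0 higher, beside the 5.20% of all genes called lower. Spint2 was at 998, 1211 and 649 CPM in A, B and C, Cldn7 at 854, 942 and 595 CPM, and Tspan8 at 388, 427 and 306 CPM. These 3 abundant partners were lowest in C, as Epcam was, but none passed the test. St14 did, at 198, 246 and 98.8 CPM in A, B and C (log2 fold change -1.17, standard error 0.31, adjusted p = 0.0932, edgeR). The median log2 fold change of the list was -0.42.

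Of 11 genes of the cadherin-catenin junction, 9 were tested and 0 called by edgeR, while 2 had an unadjusted p under 0.05 and the DESeq2 Wald test called 1. Jup (plakoglobin) was at 558, 473 and 339 CPM in A, B and C, Ctnnb1 (β-catenin) at 486, 528 and 311, and Ctnna1 (α-catenin) at 345, 385 and 484. β-catenin and plakoglobin mRNA were thus lowest in C and α-catenin highest, with log2 fold changes of -0.71, -0.61 and 0.40. The other classical cadherins Cdh2 (N-cadherin) and Cdh3 (P-cadherin) were at 0 in every library, the level at which the filter leaves a gene untested. The list median was -0.36.

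Of 9 further CEACAM genes and signalling partners, 7 were tested, with 1 called lower and 0 higher, beside the 5.20% of all genes called lower, and a median of -0.91. The kinase gene Src was the call, at 48.2, 44.0 and 18.2 CPM in A, B and C (log2 fold change -1.34, standard error 0.35, adjusted p = 0.0879, edgeR). The phosphatase gene Ptpn11 was at 63.2, 56.7 and 50.3 CPM and the secreted CEACAM gene Ceacam10 at 39.9, 27.9 and 39.4 CPM. Ceacam10 and Ceacam18 (32.6, 23.6 and 34.8 CPM) were lowest in B, as Ceacam20 was.

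The largest list held 23 integrins, laminins and hemidesmosome genes, of which 20 were tested, 3 called lower in C and 0 higher, beside the 5.20% of all genes called lower, with a median of -0.28. Dag1 (dystroglycan, another laminin receptor) was at 329, 358 and 195 CPM in A, B and C. Itgb1, the alternative partner of α6, was at 182, 129 and 177 CPM, and the tetraspanin gene Cd151, whose product binds laminin-binding integrins, at 132, 110 and 100.2 CPM. Plec (plectin, which ties α6β4 to keratins) was at 135, 112 and 60.7 CPM, and its log2 fold change of -1.03 missed the threshold (adjusted p = 0.113, edgeR), as that of Itgb4 did. The calls were the laminin chain genes Lama5 at 11.2, 31.8 and 1.05 CPM and Lamb2 at 15.0, 16.3 and 2.83 CPM, and the plakin gene Dst at 23.4, 37.7 and 5.98 CPM. Their log2 fold changes were -4.35, -2.47 and -2.35 (adjusted p = 0.0440, 0.0694 and 0.0546, edgeR). Their longest coding transcripts are 11388, 5629 and 23279 bases, and Plec has 15455. Col17a1, a collagen of skin-type hemidesmosomes, was at 0 in all libraries.

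In the list of CD44 linkers and hyaluronan genes, 6 of 11 were tested, 1 was called lower and 0 higher, beside the 5.20% of all genes called lower, with a median of -0.54. Ezr (ezrin), which links CD44 to actin and is the ERM protein of microvilli, was at 326, 307 and 116 CPM in A, B and C (log2 fold change -1.45, standard error 0.30, adjusted p = 0.0546, edgeR). Its relatives Rdx and Msn were listed at 0 in all libraries, as were the hyaluronan synthases Has2 and Has3. Slc9a3r1, a scaffold bound by ezrin, was at 194, 182 and 163 CPM. Esrp2, a splicing regulator that acts on Cd44 transcripts, was at 125, 121 and 60.2 CPM and was not called (adjusted p = 0.106, edgeR).

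Other surface antigens used to sort gut epithelium gave 0 calls by edgeR among 12 tested of 14, while 2 had an unadjusted p under 0.05 and the DESeq2 Wald test called 1; the median was -0.08. Besides Lgr5, the most abundant were the amino acid transporter chain gene Slc3a2 at 247, 294 and 251 CPM and the transferrin receptor gene Tfrc at 149, 179 and 169 CPM. The median of this list was close to that of all genes tested, and the 5 other partner lists lay below it.

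**Figure D5:**
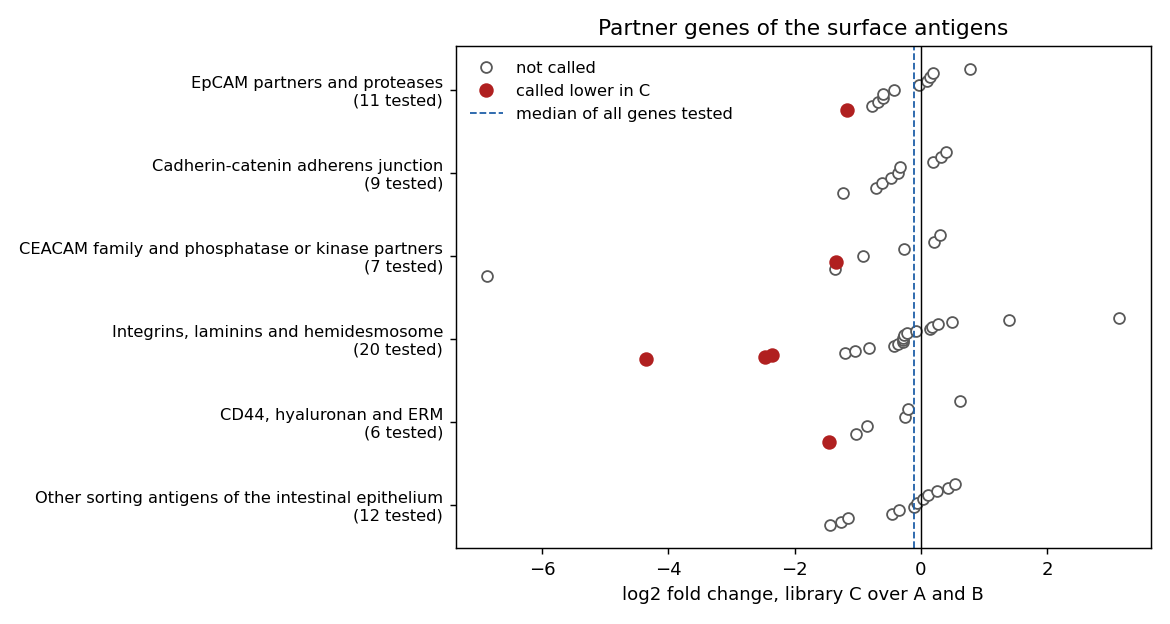
Log2 fold change of library C over A and B for the tested genes of 6 partner lists; filled points were called lower in C at an adjusted p of 0.1 by edgeR, no gene was called higher, and the dashed line is the median of all genes tested. The 6 calls are St14, Src, Lama5, Lamb2, Dst and Ezr, and the open point furthest to the left is Syk, at 16 counts or fewer in every library.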

How the data were processed

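SMART-Seq2 libraries of sorted IEC were read on an Illumina HiSeq instrument. Trimmomatic 0.39 was used for trimming and Salmon 0.14.1 for quantification against GRCm38.p6 (both also in the submitters' processing notes), and the authors summed the transcripts of each gene by tximport into the deposited estimated counts, whole numbers in the table, so that rounding was not required. Symbols, coordinates, lengths and GC content came from GENCODE M21 (GRCm38), which named 35436 of 35824 genes; the authors used an Ensembl release.

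CPM used TMM factors of edgeR 4.0.16 over the whole table, in R 4.3.3. The contrast of C with A and B was fitted to the 13604 genes that passed filterByExpr (edgeR's quasi-likelihood test), with TMM factors of those genes, 1 residual degree of freedom and Benjamini-Hochberg adjustment over all of them. The threshold of 0.1 is that of the study. Standard errors are the log2 fold change over the square root of F. C is the only library on its side of the contrast, so it adds nothing to the residual behind these p-values. That residual is the difference between A and B, with information shared across genes. It may be technical, as the labels call the libraries biological replicates without naming separate cultures or donors. The variation of C itself is not estimated. Scripts were tested on simulated counts. Alternatives were DESeq2 1.42.0 size factors and Wald test, plain totals, other filters, a threshold of 0.05, loess removal of length and GC trends (span 0.5, centred on the median), other lengths and leaving out libraries. Poisson intervals are at 95% and cover counting error only, since the reads carry no molecular identifiers.

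The 10 genes, the partner lists and the marker lists were chosen with earlier results of these data known; some genes of the lists are not reported here by name. Named genes are the 10 genes, the 3 most abundant and the called genes of each partner list (at most 5), and markers; others named (Cdh2, Cdh3, Ceacam2, Ceacam18, Ptprh, Plec, Col17a1, Rdx, Msn, Has2, Has3, Gm6212 and Syk) were chosen after their values were seen. Tables were handled in Python 3.11.15 with pandas 2.3.3.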

Additional observations from a re-analysis of the deposited data

How the results depend on the processing

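Across all genes, 892 were called in C at the main setting (185 higher and 707 lower), and between 709 and 1231 with other scalings, with trends removed or with at least 10 counts in every library. With no filter on low counts 2402 were called, by the DESeq2 Wald test 1618, and at a threshold of 0.05 276. Among the 10 genes, 1 was called at the main setting. That number was 2 (Cd24a and Itgb4) with plain totals and with at least 10 counts in every library, 3 (with Cdh17) with no filter and by the DESeq2 Wald test, and 0 at a threshold of 0.05. The cause of these changes was not tested, apart from the lower threshold itself. At the threshold of 0.1, Cd24a kept its call in all of its refits, and it was the only member with a call to lose. In the 70 refits over all members, calls were gained for Cdh17 and Itgb4 only, and no called fold change changed sign. Cd24a ranged from -2.09 to -1.89 in log2 fold change over these fits (adjusted p from edgeR at most 0.0702). Leaving out A or B leaves C against 1 library, a value with no test. Prom1, which was not called, lay near 0 and took both signs, from -0.09 with the GC trend removed to 0.18 with the length trend removed, and 0.12 against B but -0.06 against A. Of the 9 neighbouring pairs in the order per kilobase, 7 kept their order in CPM and with the median transcript length, 6 with the coding length and 9 without library C. No paired analysis was possible because there is only 1 group.

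With 1 library against 2, a difference that missed the threshold may still be real, and the standard error of 0.28 to 0.50 on the log2 scale limits what these libraries can show. Each of the 10 genes had 185 or more counts in every library. The Poisson intervals of A and B still overlapped for Cd44, Itga6 and Itgb4, and lay apart for the other genes. For Cd44, Itga6 and Itgb4 counting error was thus not small beside the spread between A and B.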
